A study of Mus musculus with 36 samples.

Results

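The 45 genes described here encode the machinery of DNA replication and the S phase of the cell cycle, measured by mRNA sequencing in cultured mouse intestinal organoids. They were taken from the expression table by gene symbol, and all 45 were among its 12652 genes. The list of replication factors was chosen without a threshold on any measured value, but with earlier results of these data known. All 45 also passed the filter on low values that left 11361 genes for testing.

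Organoids are small epithelial structures grown from intestinal stem cells. They came from 2 male wild-type C57BL/6 littermates aged 8 weeks, 1 culture per mouse, and RNA was purified in duplicate for each of 9 groups, so that a group had 4 libraries but n = 2 mice. At 6 h and 24 h of treatment the groups were all-trans retinoic acid (atRA, 10 µM), its geometric isomer 9-cis retinoic acid (9cisRA, 10 µM), an antagonist of the retinoid X receptor (RXRi, 5 µM, its identity not given in the labels) and the vehicle DMSO. The remaining group was sampled untreated at 0 h. Each purification pooled several wells seeded as single cells, and treatment began on day 3 with a change of medium: until then all cultures had received Wnt3a-conditioned medium, a ROCK inhibitor and the GSK3 inhibitor CHIR99021, and after it none did. The 0 h cultures had received no DMSO, so time, medium change and vehicle cannot be told apart in differences from 0 h. The mice are littermates of 1 sex and strain. The tests take out the average difference between the 2 cultures. Their p-values therefore measure how unevenly group differences agreed between these cultures, pooled over the 9 groups.

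Values are RPKM, which divide the reads of a gene by its length and by the size of the library. Reads recovered from the table summed to 19640305 to 30686200 per library. The epithelial marker Epcam stood at 355 to 559.6 RPKM and Krt8 at 3212 to 6999.6 RPKM over the 36 libraries, while the smooth muscle and myofibroblast marker Acta2 stood at 1.04 to 2.44 RPKM. In every sentence below, 4 values of a group are given as the duplicates of mouse 1 and then those of mouse 2. Differences are on the scale of log2(RPKM + 0.5), given ± SE, and a gene is said to be lower or higher, or to have fallen or risen, where limma gave a Benjamini-Hochberg adjusted p below 0.05 over all tested genes. In RNA from whole cultures, fewer cells in S phase and less of each transcript per cell cannot be told apart. Where a mouse is left out below, the duplicates of the other culture serve as samples. The p-values of such fits do not measure spread between animals, so a call gained or lost there cannot be put down to the animal alone. Counts of called members from these and other alternative fits are given without the share over all genes. A changed count there need not be particular to the members.

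Replication starts where the origin recognition complex, Cdc6 and Cdt1 load the MCM helicase on DNA in G1. At the start of S phase Cdc45, the GINS complex and Mcm10 help to switch the helicase on. Primase and the DNA polymerases then copy the strands, held by the sliding clamp PCNA, and many of these genes are transcribed under E2F factors as cells leave G1. In the intestine, dividing stem and progenitor cells of the crypt replicate DNA, and mature cells of the villus do not.

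The promoters of 4 members are shown because replication promoters are known for E2F motifs. Each of these members had the most negative mean difference from DMSO over the 3 compounds at 24 h within its role. A link between motif matches and the differences was not tested. Within the windows shown, Mcm6 and Orc1 hold a match and Mcm10 and Prim1 hold none. The Mcm10 window ends on TTTGGCG, so whether a match to TTTGGCGC crosses its end cannot be told. Each sequence runs 5′ to 3′ over 300 bases, from 250 before to 50 after the RefSeq start on GRCm38.p6, and capitals mark matches to TTTCGCGC, TTTGGCGC, TTTCCCGC or TTTGCCGC on either strand.
Mcm6, chr1:128359656-128359955, minus strand: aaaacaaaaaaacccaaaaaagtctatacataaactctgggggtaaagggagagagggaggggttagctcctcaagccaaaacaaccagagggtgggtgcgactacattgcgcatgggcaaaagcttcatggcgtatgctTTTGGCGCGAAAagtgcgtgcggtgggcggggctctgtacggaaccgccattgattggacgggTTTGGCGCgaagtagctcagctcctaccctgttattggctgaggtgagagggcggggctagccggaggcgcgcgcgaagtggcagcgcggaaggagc
Orc1, chr4:108579204-108579503, plus strand: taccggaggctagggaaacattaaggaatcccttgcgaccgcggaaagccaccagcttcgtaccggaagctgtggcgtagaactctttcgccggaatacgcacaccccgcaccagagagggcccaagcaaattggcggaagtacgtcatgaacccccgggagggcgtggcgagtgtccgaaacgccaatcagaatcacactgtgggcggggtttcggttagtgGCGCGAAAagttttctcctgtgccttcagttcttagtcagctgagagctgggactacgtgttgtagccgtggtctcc
Mcm10, chr2:5012742-5013041, minus strand: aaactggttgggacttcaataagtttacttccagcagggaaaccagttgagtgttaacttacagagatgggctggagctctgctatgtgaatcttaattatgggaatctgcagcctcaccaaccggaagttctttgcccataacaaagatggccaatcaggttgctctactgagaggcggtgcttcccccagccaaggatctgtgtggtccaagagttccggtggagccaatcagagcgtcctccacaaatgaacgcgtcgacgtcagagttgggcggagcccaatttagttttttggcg
Prim1, chr10:128014965-128015264, plus strand: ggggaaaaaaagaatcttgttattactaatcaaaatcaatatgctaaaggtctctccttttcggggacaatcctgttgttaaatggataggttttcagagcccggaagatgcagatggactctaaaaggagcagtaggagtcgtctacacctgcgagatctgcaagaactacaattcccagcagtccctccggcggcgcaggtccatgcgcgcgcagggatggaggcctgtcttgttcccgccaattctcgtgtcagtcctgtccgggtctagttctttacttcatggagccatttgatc

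In Mcm6 the matches began at -110, -106 and -47 from the start, of which the first pair overlap, and in Orc1 at -27. Promoters of 37 of the 45 members were in the table, and 13 of these members (35.1%) had a match. Counted per gene in the same way, the motifs stood in 704 of 27025 genes (2.6%) and in 1 of 25 genes (4%) of a list of mitosis genes, and counted per promoter in 2.26% of all 32851 promoters of that length. CCAAT, in either orientation, stood in the promoters of 24 of 37 members (64.9%), in those of 21 of 25 mitosis genes (84%) and in those of 41.1% of all genes (37.4% of all promoters). TTTGAA, the cell cycle homology region of many mitotic promoters, was found in 5 of 37 members (13.5%), in 19 of 25 mitosis genes (76%) and in 20.2% of all genes (17.9% of all promoters). These letters describe the windows and are not measurements of binding. The windows of Pcna and E2f1 also held no match to the E2F motifs, but their RefSeq start sites lie 134 and 466 bases inside the gene as GENCODE annotates it, so the 2 annotations differ on where these genes start. Ccne2, Prim2, Rfc2, Gins2, Mcm4, Pole, Gins1 and Gins4 had no entry.

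At 0 h the members spanned a wide range of levels. Pcna, the sliding clamp (chromosome 2, 132249162 to 132253314, GRCm38), was highest at 166 RPKM, and Pola1, the catalytic subunit of polymerase alpha, lowest at 4.58 RPKM, with a median over members of 29.1 RPKM. Next to Pcna stood Rrm2 at 93.0 ± 11.1, Mcm3 at 88.5 ± 4.24 and Mcm7 at 82.5 ± 5.29 RPKM (SD, n = 2 mice), and the levels of these neighbours lay within 2 SD of each other. Pcna at 166 ± 19.1 RPKM lay above Rrm2 by more than their summed SDs. At the low end Gins3 at 5.33 ± 0.029 and Ccne2 at 5.60 ± 0.064 RPKM followed Pola1 at 4.58 ± 0.23 RPKM. RPKM is per length, so these levels can be set beside each other, but Pcna has the annotated pseudogenes Pcna-ps1 and Pcna-ps2 and Tyms has Tyms-ps, and reads that such copies share may have been split in the counting. In 16 members an exon overlaps another gene, mostly on the other strand (Ints8 at Ccne2, Eif4a2 at Rfc4, Afmid at Tk1). Whether the counting used strand is not given in the sources used here, so reads of these pairs cannot be told apart.

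With DMSO alone the replication genes fell within 6 h of the medium change. At 6 h 41 of 45 were lower than at 0 h and none higher, where 23.4% of all tested genes were lower and 22.3% higher. The median difference was -0.38, against -0.015 over all genes. The 4 not called were Gins1 (-0.11 ± 0.058 (adjusted p = 0.135)), Gins4 (-0.032 ± 0.062 (adjusted p = 0.694)), Rpa3 (-0.19 ± 0.099 (adjusted p = 0.133)) and Lig1 (-0.13 ± 0.057 (adjusted p = 0.0699)). The strongest falls were in Cdt1, the licensing factor, at -0.78 ± 0.10, in Rpa2, a subunit of the single-strand binding protein, at -0.77 ± 0.074, and in Ccne1, cyclin E1, at -0.73 ± 0.10. All libraries at 6 h lay below all at 0 h for 35 members, as for 20.4% of all genes.

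Rpa2 shows the early step. It had 16.97, 17.3, 16.7 and 15.5 RPKM at 6 h with DMSO, against 30.4, 28.6, 30.04 and 25.96 RPKM at 0 h. The 6 h libraries all lay below those of 0 h, and at 24 h with DMSO Rpa2 stood again at 19.2, 16.8, 18.3 and 17.3 RPKM, a difference from 6 h of 0.10 ± 0.074 (adjusted p = 0.278). E2f1, the transcription factor that drives G1/S genes (chromosome 2, 154559407 to 154569892), had 7.58, 7.37, 5.75 and 6.14 RPKM at 6 h with DMSO, against 9.56, 10.4, 9.36 and 8.87 RPKM at 0 h, and the groups did not overlap (-0.48 ± 0.092 (adjusted p = 9.28e-04)). Pcna had 152, 152, 125 and 134 RPKM at 6 h, against 189, 170.5, 153 and 152 RPKM at 0 h. The Pcna libraries of the groups overlapped at the values of mouse 1 at 6 h and of mouse 2 at 0 h, and the difference of -0.24 ± 0.082 (adjusted p = 0.0316) gave an adjusted p of 0.0565 without the highest library of 0 h. At 24 h with DMSO 43 members were lower than at 0 h and none higher, where 30.3% of all genes were lower and 29.2% higher, and the median difference was -0.59. Rpa3 (-0.19 ± 0.099 (adjusted p = 0.123)) and Ccne2 (-0.24 ± 0.10 (adjusted p = 0.0625)) were not called. Ccne2 had 4.29 to 5.17 RPKM at 24 h with DMSO, below 5.33 to 5.79 RPKM at 0 h. Without 1 of the DMSO libraries its limma adjusted p was 0.0239. Without mouse 1 the differences of Gins4 (-0.18) and Pola1 (-0.32) were not called.

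Between 6 h and 24 h with DMSO part of the members fell further. At 24 h 22 members were lower than at 6 h and none higher, where 24.5% of all genes were lower and 25.4% higher, and the median difference was -0.19. All 6 MCM genes and all 4 genes of nucleotide supply were among the 22, but no licensing gene and no G1/S regulator. This split by role changed when a mouse was left out, in fits that take the duplicates of the other culture as samples. Without mouse 1 Mcm2, Mcm3, Mcm7, Tyms and Tk1 were not called (adjusted p = 0.531, 0.2998, 0.163, 0.103 and 0.117), and Ccne1 was called higher (0.0266). Without mouse 2 the licensing genes Cdc6 and Cdt1 and the regulator E2f1 were called lower (adjusted p = 0.0305, 0.00677 and 0.0275). The count itself was 10 without mouse 1, 30 without mouse 2, and 9 when the mouse was left out of the model as a block. Rrm1, the large subunit of ribonucleotide reductase, had 57.05, 53.9, 52.2 and 53.3 RPKM at 24 h, against 64.1, 71.4, 65.5 and 67.9 RPKM at 6 h, with no overlap (-0.31 ± 0.051 (adjusted p = 2.35e-04)). Ccne2 ran the other way with 4.77, 4.53, 5.17 and 4.29 RPKM at 24 h, against 3.56, 4.30, 3.91 and 3.70 RPKM at 6 h, but its libraries overlapped and it was not called (0.25 ± 0.10 (adjusted p = 0.0572)). Leaving out any of 4 libraries brought its adjusted p below 0.05.

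Of 30 mitosis and G2/M genes, 8 were higher and 1 lower at 6 h with DMSO than at 0 h (median 0.093), where 22.3% of all genes were higher, so that the share of higher genes was near that of all genes. Among the higher ones were Kif23 (0.32 ± 0.042 (adjusted p = 5.09e-05)) and Prc1 (0.35 ± 0.056 (adjusted p = 2.64e-04)), both needed for cytokinesis, and Tpx2 (0.23 ± 0.052 (adjusted p = 0.00282)), a spindle assembly factor. From 6 h to 24 h all 30 fell, where 24.5% of all genes were lower, with a median of -0.55. Kif23 differed by -0.65 ± 0.042 (adjusted p = 4.52e-08) and Foxm1, a transcription factor of G2/M genes, by -0.76 ± 0.057 (adjusted p = 1.86e-07). Of 32 other replication genes 22 were lower at 6 h than at 0 h and none higher, where 23.4% of all genes were lower. Among them was Dna2, a nuclease and helicase, at -0.79 ± 0.067 (adjusted p = 2.44e-06). Of 29 other S-phase and nucleotide genes 24 were lower and none higher, with Cdca7, a partner of the chromatin remodeller Hells, at -1.27 ± 0.081 (adjusted p = 3.36e-07) and Msh6, a mismatch repair factor, at -0.63 ± 0.056 (adjusted p = 2.93e-06). Both comparisons use the 6 h DMSO libraries, so their values are given side by side only.

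**Figure D1:**
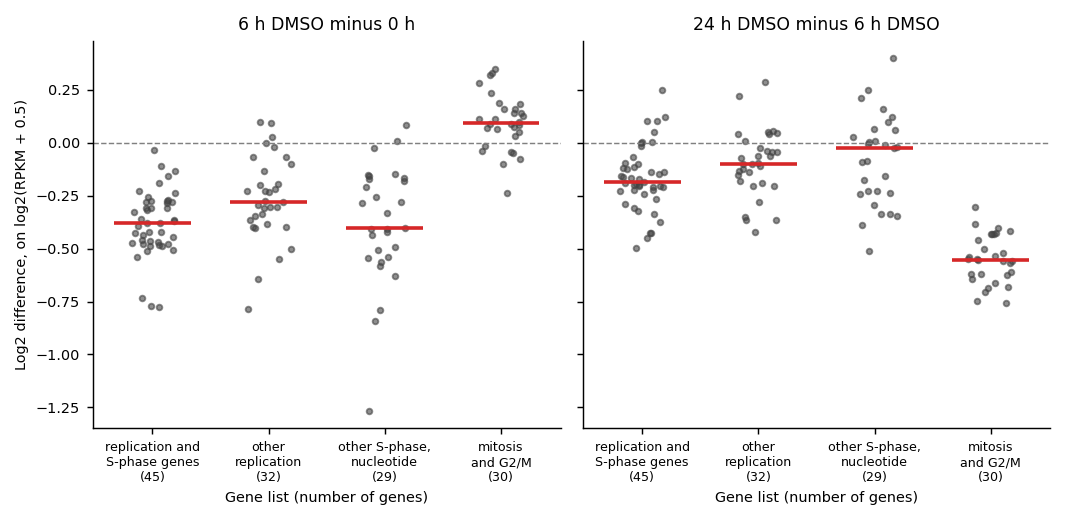
Log2 difference per gene (vertical axis, log2(RPKM + 0.5) scale) in DMSO cultures, 6 h minus 0 h on the left and 24 h minus 6 h on the right, for the 45 replication and S-phase genes and 3 other lists. Each point is a gene and each bar the list's median. The members have medians of -0.38 and -0.19, and the mitosis genes 0.093 and -0.55.

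Cell type markers moved over the same hours. Of all tested genes 24.5% fell and 25.4% rose from 6 h to 24 h with DMSO. At 6 h against 0 h 23.4% fell and 22.3% rose. From 6 h to 24 h with DMSO 13 of 14 tested enterocyte markers rose (summed level of the 15 listed genes 10229 to 16215 RPKM at 24 h, against 1727 to 2774 RPKM at 6 h), and all 8 goblet and all 7 Paneth markers rose. Of 8 tested enteroendocrine markers 5 fell and 1 rose (median -0.61), of 8 genes of epithelial identity 6 fell and none rose (median -0.23), and of 9 tested stem cell markers 3 fell and 2 rose (median 0.073). At 6 h against 0 h 3 enterocyte markers rose and 1 fell, and their summed level was 1727 to 2774 RPKM at 6 h, against 1848 to 2506 RPKM at 0 h. Of the stem cell markers 5 fell and none rose at 6 h against 0 h, and the summed level of the 11 in the table was 202 to 224 RPKM at 6 h, against 228 to 248 RPKM at 0 h. Of the genes of epithelial identity 6 rose and none fell at 6 h against 0 h, 1 Paneth marker fell, and no goblet or enteroendocrine marker was called. No marker of these lists stood at 0 in all libraries of a group. The part of cell makeup in the members' differences was not tested.

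At 24 h the replication genes were lower with each of the 3 compounds than with DMSO. With atRA 44 of 45 members were lower than with DMSO and none higher, where 18.6% of all tested genes were lower and 19.4% higher. With 9cisRA 44 were lower and none higher, where 23.5% of all genes were lower and 24.4% higher. With RXRi 37 were lower and 1 higher, where 30.4% were lower and 31.1% higher. The median differences of the members were -0.45 with atRA, -0.55 with 9cisRA and -0.29 with RXRi, while the medians of all genes lay between -0.0039 and 0.00076. These 3 comparisons share the same DMSO libraries.

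Relative to the 0 h mean, the median member stood at 73.7% with atRA, 75.1% with 9cisRA, 76.3% with RXRi and 76.8% with DMSO at 6 h. At 24 h it stood at 47.8% with atRA, 45.4% with 9cisRA, 54.0% with RXRi and 65.8% with DMSO. The spread over members at 24 h ran to 36.7 and 83.3% with atRA, 34.8 and 79.9% with 9cisRA, 31.0 and 89.9% with RXRi and 53.6 and 87.6% with DMSO. All libraries of a compound lay below all DMSO libraries for 42 members with atRA, 43 with 9cisRA and 34 with RXRi, where 19.8%, 21.1% and 29.8% of all genes did.

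**Figure D2:**
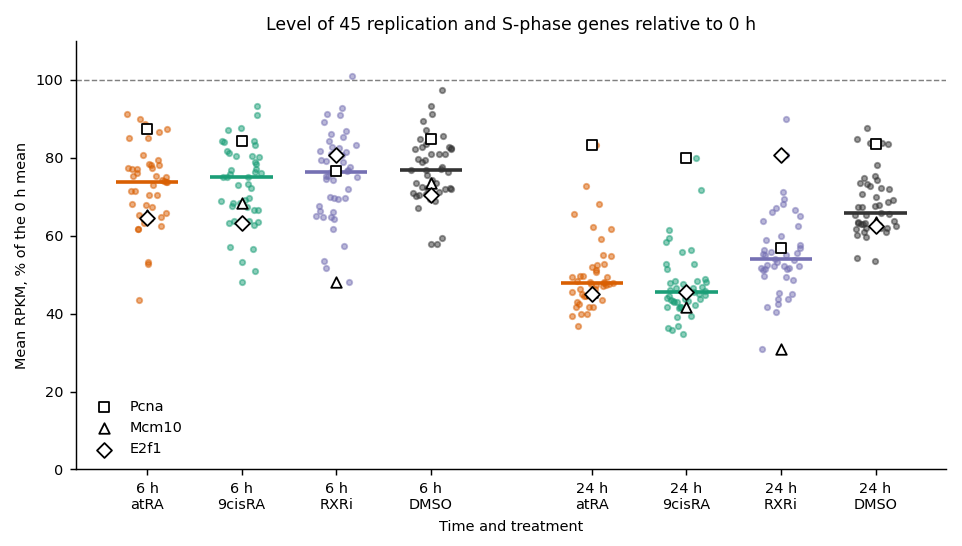
Mean RPKM of each of the 45 genes as a percentage of its 0 h mean (vertical axis), by time and treatment. Points are genes, bars are medians over genes, and open symbols mark Pcna, Mcm10 and E2f1. At 6 h the 4 medians lie between 73.7 and 76.8%, and at 24 h those of the compounds lie between 45.4 and 54.0%, below 65.8% with DMSO.

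**Figure D3:**
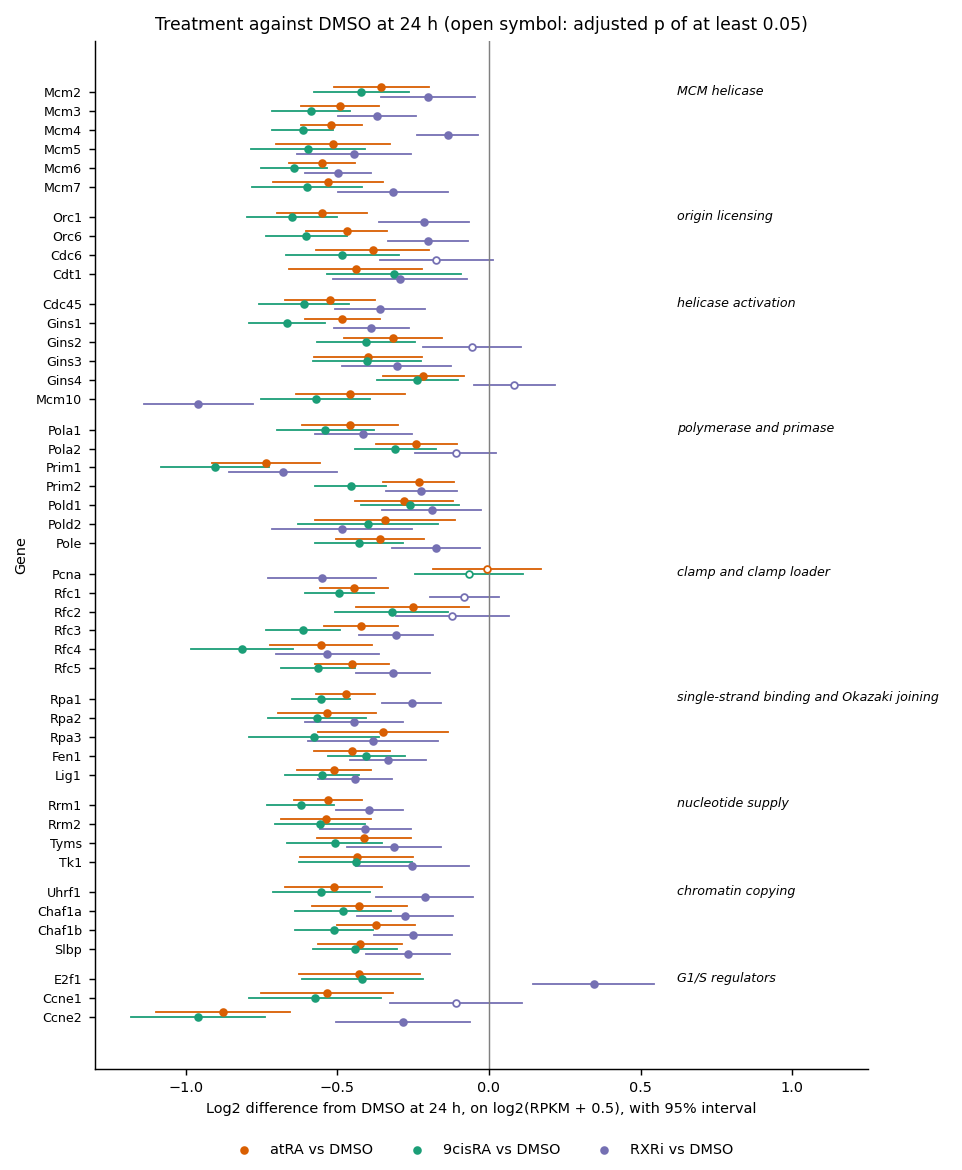
Log2 difference of each gene from DMSO at 24 h (horizontal axis, log2(RPKM + 0.5) scale) with its 95% interval, by role, for atRA, 9cisRA and RXRi from top to bottom within a gene. Filled symbols were called and open ones were not. All but Pcna fell with atRA and 9cisRA, and E2f1 lies to the right of 0 with RXRi.

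The MCM helicase, the ring of Mcm2 to Mcm7 that unwinds DNA, was lower in all 6 subunits with each compound. The differences ran over -0.55 to -0.36 with atRA, -0.64 to -0.42 with 9cisRA and -0.50 to -0.14 with RXRi, where Mcm4 was the least lowered (-0.14 ± 0.046 (adjusted p = 0.0207), and not called without mouse 2). Mcm6 had 33.8, 34.4, 35.8 and 33.4 RPKM in the atRA libraries at 24 h and 35.6, 33.3, 28.7 and 31.6 RPKM in the 9cisRA libraries. It had 38.3, 36.1, 33.9 and 34.5 RPKM in the RXRi libraries, against 54.2, 50.6, 48.3 and 49.1 RPKM in the DMSO libraries. No library of a compound reached the lowest DMSO library of Mcm6 (chromosome 1, 128331590 to 128359664). Mcm6 differed from DMSO on the log2 scale by -0.55 ± 0.050 (adjusted p = 4.49e-06) with atRA, -0.64 ± 0.050 (adjusted p = 8.34e-07) with 9cisRA and -0.50 ± 0.050 (adjusted p = 1.56e-06) with RXRi. Mcm2 had 28.01, 27.2, 26.3 and 26.1 RPKM in the atRA libraries at 24 h and 26.6, 27.1, 24.8 and 24.3 RPKM in the 9cisRA libraries. It had 30.1, 31.04, 28.8 and 30.001 RPKM in the RXRi libraries, against 37.3, 34.3, 34.4 and 32.4 RPKM in the DMSO libraries. The groups of Mcm2 did not overlap with DMSO either, with the RXRi libraries nearest to it. Mcm2 differed from DMSO on the log2 scale by -0.36 ± 0.072 (adjusted p = 0.00200) with atRA, -0.42 ± 0.072 (adjusted p = 4.11e-04) with 9cisRA and -0.20 ± 0.072 (adjusted p = 0.0276) with RXRi. The adjusted p with RXRi was 0.0659 without the highest DMSO library.

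Origin licensing, the loading of that helicase in G1, was lower in all 4 genes with atRA and with 9cisRA and in 3 of 4 with RXRi. The ranges were -0.55 to -0.38, -0.65 to -0.31 and -0.29 to -0.17 in that order. Orc1 had 2.99, 3.50, 3.49 and 3.44 RPKM in the atRA libraries at 24 h and 3.76, 3.05, 2.72 and 2.93 RPKM in the 9cisRA libraries. It had 4.84, 4.33, 3.98 and 4.34 RPKM in the RXRi libraries, against 5.65, 5.14, 5.20 and 4.61 RPKM in the DMSO libraries. Orc1, the largest subunit of the origin recognition complex (chromosome 4, 108579423 to 108614833), thus lay clear of DMSO with both acids, and its RXRi libraries overlapped with DMSO. Orc1 differed from DMSO on the log2 scale by -0.55 ± 0.068 (adjusted p = 5.40e-05) with atRA, -0.65 ± 0.068 (adjusted p = 8.82e-06) with 9cisRA and -0.21 ± 0.068 (adjusted p = 0.0151) with RXRi. With RXRi the adjusted p of Orc1 was 0.0836 without mouse 2 and 0.0522 without 1 DMSO library. Cdc6 had 5.66, 5.07, 5.37 and 5.19 RPKM in the atRA libraries at 24 h and 4.82, 4.60, 5.18 and 5.13 RPKM in the 9cisRA libraries. It had 6.16, 6.48, 5.83 and 6.46 RPKM in the RXRi libraries, against 7.08, 7.44, 7.20 and 6.63 RPKM in the DMSO libraries. Cdc6, the loader ATPase, had no overlap with DMSO under any compound, although its difference with RXRi was not called. Cdc6 differed from DMSO on the log2 scale by -0.38 ± 0.086 (adjusted p = 0.00383) with atRA, -0.48 ± 0.086 (adjusted p = 5.36e-04) with 9cisRA and -0.17 ± 0.086 (adjusted p = 0.0977) with RXRi. It was called with RXRi without mouse 2 (adjusted p = 0.0413) and without 1 RXRi library. Without mouse 1 Cdt1 was not called with 9cisRA (adjusted p = 0.0527) or RXRi (0.129), nor Orc6 with RXRi (0.107).

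Helicase activation genes were lower at 6 of 6 with atRA, 6 of 6 with 9cisRA and 4 of 6 with RXRi. Mcm10 had 6.35, 6.26, 7.22 and 6.27 RPKM in the atRA libraries at 24 h and 6.42, 6.18, 5.46 and 5.91 RPKM in the 9cisRA libraries. It had 4.43, 4.46, 4.31 and 4.62 RPKM in the RXRi libraries, against 9.59, 8.79, 9.08 and 9.08 RPKM in the DMSO libraries. Mcm10, which helps the loaded helicase start (chromosome 2, 4989714 to 5012791), did not overlap with DMSO under any compound and was lowest with RXRi. Mcm10 differed from DMSO on the log2 scale by -0.46 ± 0.083 (adjusted p = 9.22e-04) with atRA, -0.57 ± 0.083 (adjusted p = 1.21e-04) with 9cisRA and -0.96 ± 0.083 (adjusted p = 3.44e-07) with RXRi. Gins4 had 18.5, 19.1, 19.5 and 20.1 RPKM in the atRA libraries at 24 h and 18.8, 18.5, 18.01 and 20.95 RPKM in the 9cisRA libraries. It had 24.3, 23.8, 22.8 and 24.6 RPKM in the RXRi libraries, against 22.4, 22.98, 22.8 and 21.9 RPKM in the DMSO libraries. Gins4, a subunit of the GINS complex, lay below DMSO in all libraries of both acids, but the RXRi libraries overlapped with DMSO. Gins4 differed from DMSO on the log2 scale by -0.22 ± 0.062 (adjusted p = 0.0148) with atRA, -0.24 ± 0.062 (adjusted p = 0.00700) with 9cisRA and 0.084 ± 0.062 (adjusted p = 0.257) with RXRi. The calls with atRA and 9cisRA were lost without mouse 1 (adjusted p = 0.201 and 0.102). Gins3, another GINS subunit, was not called without mouse 2 with atRA, 9cisRA or RXRi (adjusted p = 0.126, 0.178 and 0.0865), and Gins2 not with atRA without 1 DMSO library (0.0535). Gins2 was also not called with RXRi (-0.056 ± 0.075 (adjusted p = 0.533)), whereas Gins1 was lower (-0.39 ± 0.058 (adjusted p = 5.87e-05)).

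Polymerase and primase genes were lower at 7 of 7 with atRA, 7 of 7 with 9cisRA and 6 of 7 with RXRi. Prim1 had 14.6, 13.7, 16.3 and 14.7 RPKM in the atRA libraries at 24 h and 14.1, 14.2, 10.6 and 13.9 RPKM in the 9cisRA libraries. It had 15.6, 15.1, 15.5 and 15.5 RPKM in the RXRi libraries, against 28.2, 24.6, 24.5 and 22.9 RPKM in the DMSO libraries. Prim1, the catalytic subunit of primase (chromosome 10, 128015168 to 128030037), was far below DMSO in every library of every compound. Prim1 differed from DMSO on the log2 scale by -0.74 ± 0.083 (adjusted p = 2.45e-05) with atRA, -0.90 ± 0.083 (adjusted p = 2.91e-06) with 9cisRA and -0.68 ± 0.083 (adjusted p = 9.48e-06) with RXRi. Pola2 had 8.82, 9.003, 9.05 and 8.48 RPKM in the atRA libraries at 24 h and 8.79, 8.56, 7.997 and 8.27 RPKM in the 9cisRA libraries. It had 9.72, 9.999, 9.52 and 9.62 RPKM in the RXRi libraries, against 11.3, 10.7, 10.04 and 10.1 RPKM in the DMSO libraries. Pola2, the accessory subunit of polymerase alpha, lay below all DMSO libraries with both acids, and with RXRi its highest library lay just below the lowest of DMSO. Pola2 differed from DMSO on the log2 scale by -0.24 ± 0.062 (adjusted p = 0.00839) with atRA, -0.31 ± 0.062 (adjusted p = 0.00125) with 9cisRA and -0.11 ± 0.062 (adjusted p = 0.138) with RXRi. The partner primase subunit Prim2 differed by -0.23 ± 0.054 (adjusted p = 0.00468) with atRA, -0.46 ± 0.054 (adjusted p = 2.31e-05) with 9cisRA and -0.22 ± 0.054 (adjusted p = 0.00281) with RXRi. Without mouse 1 it was not called with atRA (adjusted p = 0.233) or RXRi (-0.13, adjusted p = 0.336), nor without 1 DMSO library (0.0617 and 0.0516). With RXRi the calls of the polymerase genes Pold1 and Pole were lost without mouse 2 (adjusted p = 0.0719 and 0.196), and that of Pold1 also without mouse 1 (0.0930). With 9cisRA Pold1 was not called without 1 library of 9cisRA (0.0711).

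With both acids the clamp and its loader split. All 5 loader genes, Rfc1 to Rfc5, were lower with atRA and with 9cisRA, and 3 of them with RXRi, where Rfc1 (-0.081 ± 0.052 (adjusted p = 0.194)) and Rfc2 (-0.12 ± 0.086 (adjusted p = 0.240)) were not called. The Rfc2 calls were lost without mouse 1 with atRA (adjusted p = 0.231) and 9cisRA (0.144), and with atRA also without 1 DMSO library (0.0631). With RXRi Rfc3 was not called without mouse 1 (0.0557) and Rfc2 was called lower without mouse 2 (0.00415). Rfc4 had 13.7, 14.8, 14.96 and 14.7 RPKM in the atRA libraries at 24 h and 13.8, 10.3, 11.1 and 13.2 RPKM in the 9cisRA libraries. It had 14.9, 15.1, 13.8 and 15.2 RPKM in the RXRi libraries, against 21.5, 23.3, 22.8 and 18.8 RPKM in the DMSO libraries. The Rfc4 libraries of each compound lay below all DMSO libraries. Rfc4 differed from DMSO on the log2 scale by -0.55 ± 0.078 (adjusted p = 1.40e-04) with atRA, -0.81 ± 0.078 (adjusted p = 4.11e-06) with 9cisRA and -0.53 ± 0.078 (adjusted p = 5.16e-05) with RXRi. Pcna had 135, 141, 131 and 147 RPKM in the atRA libraries at 24 h and 132, 122, 132 and 146 RPKM in the 9cisRA libraries. It had 94.6, 92.5, 94.7 and 97.01 RPKM in the RXRi libraries, against 139, 148, 136 and 132 RPKM in the DMSO libraries. Pcna, the clamp, overlapped with DMSO under both acids and lay clear below it with RXRi. Pcna differed from DMSO on the log2 scale by -0.0051 ± 0.082 (adjusted p = 0.969) with atRA, -0.065 ± 0.082 (adjusted p = 0.535) with 9cisRA and -0.55 ± 0.082 (adjusted p = 6.28e-05) with RXRi. The 95% interval of the Pcna difference was -0.18 to 0.17 with atRA and -0.24 to 0.11 with 9cisRA, and without mouse 2 the 9cisRA difference was called (adjusted p = 0.0436).

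Single-strand binding and Okazaki joining genes (Rpa1 to Rpa3, Fen1 and Lig1) were lower at 5 of 5 with each compound, over -0.53 to -0.35 with atRA, -0.58 to -0.40 with 9cisRA and -0.44 to -0.26 with RXRi. Without mouse 1 the difference of Rpa3 with atRA was -0.14 and not called (adjusted p = 0.479). Rpa2 had 11.9, 11.6, 11.8 and 13.5 RPKM in the atRA libraries at 24 h and 12.03, 11.8, 12.1 and 11.6 RPKM in the 9cisRA libraries. It had 12.95, 14.2, 12.3 and 12.5 RPKM in the RXRi libraries, against 19.2, 16.8, 18.3 and 17.3 RPKM in the DMSO libraries. No compound library of Rpa2 overlapped with DMSO. Rpa2 differed from DMSO on the log2 scale by -0.53 ± 0.074 (adjusted p = 1.32e-04) with atRA, -0.57 ± 0.074 (adjusted p = 5.40e-05) with 9cisRA and -0.44 ± 0.074 (adjusted p = 1.67e-04) with RXRi. Fen1 had 25.2, 24.2, 24.7 and 23.5 RPKM in the atRA libraries at 24 h and 25.9, 24.2, 24.6 and 26.3 RPKM in the 9cisRA libraries. It had 26.9, 27.5, 26.2 and 25.6 RPKM in the RXRi libraries, against 36.4, 32.9, 34.3 and 30.8 RPKM in the DMSO libraries. Fen1, the nuclease that trims flaps between Okazaki fragments, was likewise below DMSO in every compound library. Fen1 differed from DMSO on the log2 scale by -0.45 ± 0.058 (adjusted p = 7.55e-05) with atRA, -0.40 ± 0.058 (adjusted p = 1.14e-04) with 9cisRA and -0.33 ± 0.058 (adjusted p = 2.40e-04) with RXRi.

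Nucleotide supply genes (Rrm1, Rrm2, Tyms and Tk1) were lower at 4 of 4 with each compound. Rrm1 had 36.8, 37.5, 38.9 and 36.02 RPKM in the atRA libraries at 24 h and 37.96, 36.4, 31.03 and 34.9 RPKM in the 9cisRA libraries. It had 43.7, 42.05, 38.9 and 39.6 RPKM in the RXRi libraries, against 57.05, 53.9, 52.2 and 53.3 RPKM in the DMSO libraries. The compound libraries of Rrm1 all lay below DMSO, with RXRi nearest to it. Rrm1 differed from DMSO on the log2 scale by -0.53 ± 0.051 (adjusted p = 7.49e-06) with atRA, -0.62 ± 0.051 (adjusted p = 1.33e-06) with 9cisRA and -0.39 ± 0.051 (adjusted p = 1.80e-05) with RXRi. Tk1 had 20.4, 22.6, 22.2 and 19.9 RPKM in the atRA libraries at 24 h and 20.2, 21.4, 23.3 and 20.1 RPKM in the 9cisRA libraries. It had 23.2, 24.3, 23.5 and 25.98 RPKM in the RXRi libraries, against 31.8, 30.2, 28.4 and 25.7 RPKM in the DMSO libraries. Tk1, thymidine kinase of the salvage route, lay below all DMSO libraries with both acids and overlapped with DMSO under RXRi. Tk1 differed from DMSO on the log2 scale by -0.44 ± 0.086 (adjusted p = 0.00168) with atRA, -0.44 ± 0.086 (adjusted p = 0.00111) with 9cisRA and -0.25 ± 0.086 (adjusted p = 0.0214) with RXRi. The RXRi call of Tk1 was lost without mouse 1 (adjusted p = 0.330) and without 1 RXRi library (0.0604).

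Chromatin copying genes (Uhrf1, Chaf1a, Chaf1b and Slbp) were lower at 4 of 4 with each compound, and with RXRi the call of Chaf1b was lost without mouse 1 (adjusted p = 0.0818). Uhrf1 had 19.96, 19.6, 20.3 and 18.4 RPKM in the atRA libraries at 24 h and 18.2, 20.2, 17.7 and 19.8 RPKM in the 9cisRA libraries. It had 24.95, 23.9, 23.6 and 24.2 RPKM in the RXRi libraries, against 29.9, 27.5, 27.7 and 27.2 RPKM in the DMSO libraries. Uhrf1, which guides maintenance of DNA methylation, did not overlap with DMSO under any compound. Uhrf1 differed from DMSO on the log2 scale by -0.51 ± 0.074 (adjusted p = 1.75e-04) with atRA, -0.55 ± 0.074 (adjusted p = 6.47e-05) with 9cisRA and -0.21 ± 0.074 (adjusted p = 0.0242) with RXRi. The adjusted p with RXRi was 0.0562 without the highest DMSO library. Slbp had 17.4, 18.1, 18.2 and 18.3 RPKM in the atRA libraries at 24 h and 20.03, 18.4, 14.7 and 18.5 RPKM in the 9cisRA libraries. It had 21.95, 20.2, 19.7 and 18.8 RPKM in the RXRi libraries, against 26.5, 24.7, 23.2 and 23.02 RPKM in the DMSO libraries. Slbp, the binding protein of histone mRNA stem-loops, lay below all DMSO libraries under each compound as well. Slbp differed from DMSO on the log2 scale by -0.43 ± 0.064 (adjusted p = 2.41e-04) with atRA, -0.44 ± 0.064 (adjusted p = 1.24e-04) with 9cisRA and -0.27 ± 0.064 (adjusted p = 0.00271) with RXRi.

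The G1/S regulators E2f1, Ccne1 and Ccne2 were lower at 3 of 3 with both acids, and with RXRi 1 was lower and 1 higher. Ccne2 had 2.33, 2.16, 2.60 and 2.24 RPKM in the atRA libraries at 24 h and 2.63, 2.24, 1.74 and 2.13 RPKM in the 9cisRA libraries. It had 3.66, 3.69, 3.80 and 3.88 RPKM in the RXRi libraries, against 4.77, 4.53, 5.17 and 4.29 RPKM in the DMSO libraries. Ccne2, cyclin E2 (chromosome 4, 11191351 to 11204779), had its libraries with atRA and 9cisRA far below DMSO and those with RXRi between. Ccne2 differed from DMSO on the log2 scale by -0.88 ± 0.10 (adjusted p = 3.27e-05) with atRA, -0.96 ± 0.10 (adjusted p = 1.00e-05) with 9cisRA and -0.28 ± 0.10 (adjusted p = 0.0275) with RXRi. The RXRi call of Ccne2 was lost without mouse 1 (adjusted p = 0.150) and without 1 DMSO library (0.0756). E2f1 had 4.48, 4.21, 4.53 and 3.96 RPKM in the atRA libraries at 24 h and 3.80, 4.40, 4.75 and 4.38 RPKM in the 9cisRA libraries. It had 8.43, 7.87, 7.17 and 7.30 RPKM in the RXRi libraries, against 6.30, 6.26, 5.47 and 5.76 RPKM in the DMSO libraries. All E2f1 libraries lay below DMSO with both acids and all lay above DMSO with RXRi. E2f1 differed from DMSO on the log2 scale by -0.43 ± 0.092 (adjusted p = 0.00296) with atRA, -0.42 ± 0.092 (adjusted p = 0.00252) with 9cisRA and 0.35 ± 0.092 (adjusted p = 0.00542) with RXRi. E2f1 was the only member called higher against DMSO by any of the 3 compounds at 24 h. Ccne1 differed by -0.53 ± 0.10 (adjusted p = 0.00123) with atRA, -0.57 ± 0.10 (adjusted p = 4.90e-04) with 9cisRA and -0.11 ± 0.10 (adjusted p = 0.367) with RXRi, and the last was called without mouse 2 (0.0462).

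**Figure D4:**
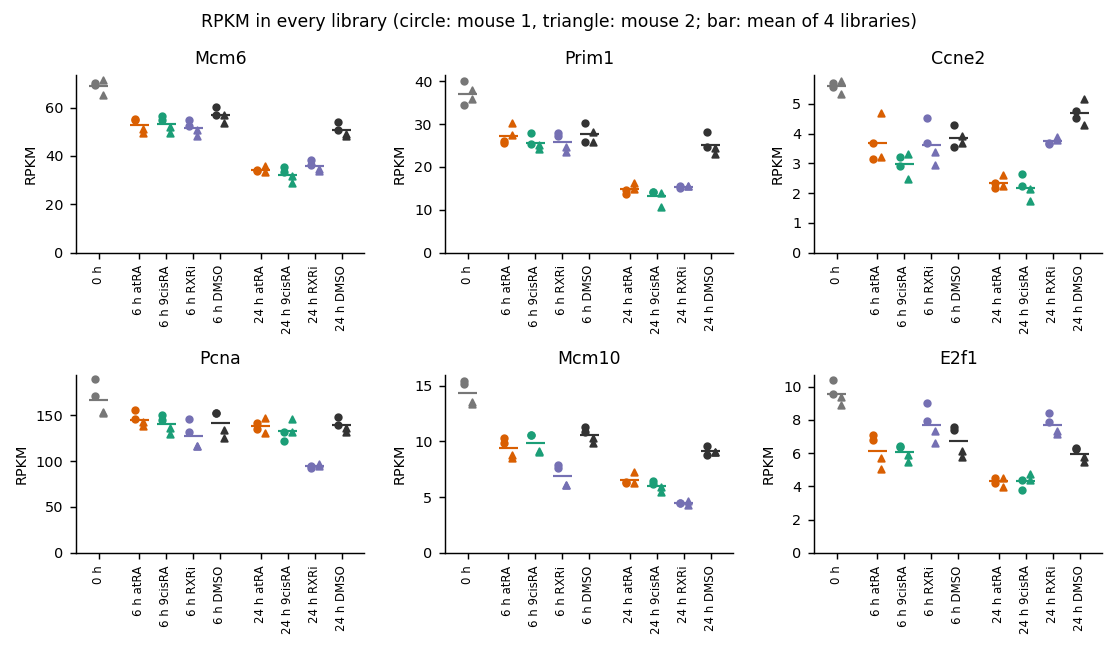
RPKM of Mcm6, Prim1, Ccne2, Pcna, Mcm10 and E2f1 in all 36 libraries (vertical axes from 0), by time and treatment. Circles are mouse 1, triangles mouse 2 and bars the mean of 4 libraries. At 24 h Pcna with RXRi lies at 92.5 to 97.0 RPKM, below every other library, and E2f1 with RXRi at 7.17 to 8.43 RPKM, above the other 24 h libraries.

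At 6 h few members were called. Against DMSO no member was called with atRA or with 9cisRA, and with RXRi 1 was lower and none higher, where 4.66%, 8.04% and 25.2% of all genes were called in either direction, and with RXRi 14.6% were lower and 10.6% higher. The median differences of the members were -0.079, -0.078 and -0.035 in that order. At an unadjusted p below 0.05, 8, 9 and 5 of 45 members passed limma's test, where 2366, 2384 and 4084 of 11361 genes did. Limma-voom on recovered reads called 1 member with atRA, none with 9cisRA and 2 with RXRi. Without mouse 2 the called counts were 4, 6 and 3, in fits that take the duplicates of the other culture as samples. After quantile normalization or scaling to read sums, 1 member was lower and 2 were higher with RXRi.

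The member lowered at 6 h was Mcm10. It had 7.61, 7.90, 6.09 and 6.06 RPKM with RXRi at 6 h, against 11.3, 10.8, 10.3 and 9.87 RPKM with DMSO, and every RXRi library lay below every DMSO library (-0.59 ± 0.083 (adjusted p = 1.60e-04)). With atRA it had 9.87, 10.3, 8.77 and 8.49 RPKM and with 9cisRA 10.5, 10.6, 9.12 and 9.07 RPKM at 6 h, where the differences from DMSO of -0.17 ± 0.083 (adjusted p = 0.270) and -0.10 ± 0.083 (adjusted p = 0.542) were not called. E2f1 with RXRi had 8.98, 7.91, 7.30 and 6.61 RPKM at 6 h, against 7.58, 7.37, 5.75 and 6.14 RPKM with DMSO, and the groups overlapped (0.19 ± 0.092 (adjusted p = 0.169)). Pcna with RXRi had 145, 132, 116 and 117 RPKM at 6 h, against 152, 152, 125 and 134 RPKM with DMSO, again with overlap (-0.15 ± 0.082 (adjusted p = 0.230)).

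The change of each compound's effect from 6 h to 24 h was tested directly. It was negative and called for 27 members with atRA, 36 with 9cisRA and 22 with RXRi, and positive and called for none, where 7.11%, 7.90% and 16.5% of all genes were called negative and 10.0%, 10.1% and 18.6% positive. The median changes were -0.38, -0.44 and -0.24. Ccne2 changed by -0.80 ± 0.14 (adjusted p = 0.00339) with atRA and -0.63 ± 0.14 (adjusted p = 0.0109) with 9cisRA, and Prim1 by -0.72 ± 0.12 (adjusted p = 0.00203) and -0.80 ± 0.12 (adjusted p = 9.51e-04). With RXRi, Prim1 changed by -0.59 ± 0.12 (adjusted p = 0.00171), Pcna by -0.40 ± 0.12 (adjusted p = 0.0161) and Mcm10 by -0.37 ± 0.12 (adjusted p = 0.0252), while E2f1 changed by 0.16 ± 0.13 (adjusted p = 0.376). With atRA the count was 17 without mouse 1, and with RXRi 13 without mouse 1. Without the mouse in the model the 3 counts were 15, 22 and 12.

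The isomers atRA and 9cisRA were given at the same dose and could be set against each other at both times. At 24 h no member differed between 9cisRA and atRA, where 0.467% of all genes were called. In limma's test 6 members had an unadjusted p below 0.05, against 1359 of 11361 genes. The median difference was -0.081, against -0.0015 over all genes. The estimate was negative for 41 of 45 members, but negative in both mice for 27 only, and none was called. The largest difference was that of Rfc4 at -0.26 ± 0.078 (95% interval -0.43 to -0.092, adjusted p = 0.200). The intervals of the members named first per role ran for Mcm6 over -0.20 to 0.017, for Prim1 over -0.35 to 0.011 and for Ccne2 over -0.30 to 0.14, so differences of these sizes between the isomers remain possible. At 6 h no member differed either, where 1.72% of all genes were called, and the members' median was 0.0053. There 5 members had an unadjusted p below 0.05 in limma's test, against 1790 of 11361 genes. Limma-voom called none of the members at 24 h and 1 at 6 h.

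RXRi was given at 5 µM and 9cisRA at 10 µM, so the direct test at 24 h sets the cultures against each other as treated and not at a matched dose. Of 45 members 30 were higher and 2 lower with RXRi than with 9cisRA, where 31.0% of all genes were higher and 25.3% lower. The members' median was 0.22 and that of all genes 0.055, and without the mouse as a block 21 members in all were called. Higher members included all 4 genes of chromatin copying, all 3 G1/S regulators and 5 of 6 MCM genes, and Rpa1 alone of the 5 single-strand binding and Okazaki joining genes. Without mouse 2 Rpa2 and Rpa3 were called higher as well (adjusted p = 0.0440 and 0.0112), Rpa3 also without 1 library of 9cisRA (0.00924), and without mouse 1 Chaf1a was not called (0.0593). E2f1 differed by 0.76 ± 0.092 (adjusted p = 9.90e-06), Ccne2 by 0.67 ± 0.10 (adjusted p = 7.98e-05), Mcm4 by 0.48 ± 0.046 (adjusted p = 1.10e-06) and Ccne1 by 0.46 ± 0.10 (adjusted p = 0.00149). The 2 lower members were Pcna at -0.48 ± 0.082 (adjusted p = 2.11e-04) and Mcm10 at -0.39 ± 0.083 (adjusted p = 0.00132), and for both every RXRi library lay below every 9cisRA library. Mcm6 (0.15 ± 0.050 (adjusted p = 0.0246)) and Prim1 (0.22 ± 0.083 (adjusted p = 0.0342)) were also called higher, but not without mouse 2 (adjusted p = 0.119 and 0.319). Slbp (0.17 ± 0.064 (adjusted p = 0.0344)) was not called higher without mouse 1 or mouse 2.

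**Figure D5:**
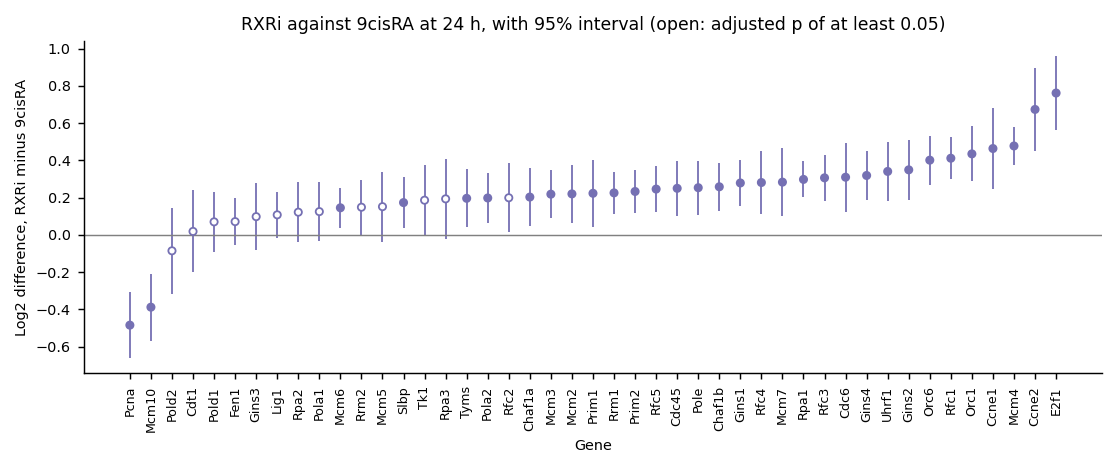
Log2 difference of each of the 45 genes between RXRi and 9cisRA at 24 h (vertical axis, RXRi minus 9cisRA, log2(RPKM + 0.5) scale) with its 95% interval, in order of size. Filled symbols were called and open ones were not. Pcna and Mcm10 lie below 0 and E2f1 and Ccne2 at the upper end, from -0.48 to 0.76.

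Set against atRA at 24 h, a comparison added after the values were seen, RXRi cultures had 14 members higher and 2 lower, where 28.5% of all genes were higher and 24.3% lower. The share of higher members was thus near that of all genes, and the share of lower members was below it. The median was 0.13, against 0.039 over all genes, and after quantile normalization or scaling to read sums 32 or 30 members were called in all. With these scalings the median of all genes rose to 0.11 and 0.086. The members' median minus that of all genes was 0.086 and 0.095, against 0.092 as reported. The lower ones were Pcna (-0.54 ± 0.082 (adjusted p = 8.00e-05)) and Mcm10 (-0.50 ± 0.083 (adjusted p = 1.81e-04)). E2f1 (0.77 ± 0.092 (adjusted p = 8.98e-06)), Ccne2 (0.59 ± 0.10 (adjusted p = 2.60e-04)) and Orc1 (0.34 ± 0.068 (adjusted p = 9.48e-04)) were among the higher ones. This comparison, the one with 9cisRA and those with DMSO share the RXRi libraries.

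Other cell cycle lists moved at 24 h as follows. Of all tested genes 18.6% were lower and 19.4% higher with atRA, 23.5% and 24.4% with 9cisRA, and 30.4% and 31.1% with RXRi. Of 32 other replication genes 26 were lower with atRA, 29 with 9cisRA and 17 with RXRi, and none, 1 and 3 were higher. Clspn, a replication checkpoint adaptor, differed by -0.64 ± 0.058 (adjusted p = 4.49e-06) with atRA and -0.70 ± 0.058 (adjusted p = 1.40e-06) with 9cisRA, and Dna2 by -0.78 ± 0.067 (adjusted p = 3.41e-07) with RXRi. Of 29 other S-phase and nucleotide genes 28, 28 and 26 were lower and 1 higher with each compound. Esco2, a cohesin acetyltransferase, differed by -0.81 ± 0.061 (adjusted p = 1.14e-06), -0.98 ± 0.061 (adjusted p = 1.48e-07) and -0.66 ± 0.061 (adjusted p = 6.33e-07) with atRA, 9cisRA and RXRi. With RXRi Shmt1, an enzyme of folate metabolism (-1.02 ± 0.068 (adjusted p = 2.59e-08)), and Ccna2, cyclin A2 (-0.78 ± 0.062 (adjusted p = 1.46e-07)), were among the genes of this list with the smallest p-values.

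Of 30 mitosis and G2/M genes 30 were lower with atRA, 30 with 9cisRA and 29 with RXRi, and none was higher, with medians of -0.55, -0.63 and -0.59. Birc5, the survivin subunit of the chromosomal passenger complex, differed by -0.58 ± 0.050 with atRA, -0.69 ± 0.050 with 9cisRA and -0.72 ± 0.050 with RXRi. The members' medians in the same comparisons were -0.45, -0.55 and -0.29, and the difference between the lists was not tested. Of 28 genes of the E2F and RB network 17, 18 and 15 were lower and 3, 3 and 5 higher. For both lists, the shares over all genes were 18.6%, 23.5% and 30.4% lower and 19.4%, 24.4% and 31.1% higher. Ccnd2, cyclin D2, was lower with atRA (-0.55 ± 0.039 (adjusted p = 6.68e-07)) and 9cisRA (-0.50 ± 0.039 (adjusted p = 8.34e-07)). With RXRi Ccnd1, cyclin D1, was higher (0.34 ± 0.044 (adjusted p = 1.64e-05)), Skp2, a ubiquitin ligase subunit, was lower (-0.57 ± 0.079 (adjusted p = 3.31e-05)) and the repressor E2f8 was lower (-0.53 ± 0.078 (adjusted p = 4.70e-05)).

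Cell type markers differed between the same groups at 24 h. Beside the counts below, 18.6% of all genes were lower and 19.4% higher with atRA. With 9cisRA 23.5% were lower and 24.4% higher, and with RXRi 30.4% and 31.1%. Of 14 tested enterocyte markers 6 were higher and 3 lower with atRA, 8 higher and 3 lower with 9cisRA, and 1 higher and 13 lower with RXRi. The summed level of the 15 in the table was 19133 to 26831 RPKM with atRA, 23298 to 30547 RPKM with 9cisRA and 3810 to 5777 RPKM with RXRi, against 10229 to 16215 RPKM with DMSO. Of 9 stem cell markers 6 were lower and 1 higher with atRA, 6 lower and none higher with 9cisRA, and 4 lower and 4 higher with RXRi. The summed level of the 11 in the table was 185 to 194 RPKM with atRA, 165 to 188 RPKM with 9cisRA and 217 to 223 RPKM with RXRi, against 213 to 229 RPKM with DMSO. Of 7 Paneth markers 1 was higher with atRA, 1 higher and 1 lower with 9cisRA, and 6 lower with RXRi, and of 8 goblet markers 1, 1 and 4 were higher and none lower. Of 8 tested enteroendocrine markers none was called with the acids, and 1 was higher and 1 lower with RXRi. Of 8 genes of epithelial identity 5 were higher with each compound, and 1, none and 3 were lower with atRA, 9cisRA and RXRi. No marker stood at 0 in all libraries of a group. The part of these markers in the members' differences was not tested.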

How the data were processed

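RNA of 36 organoid libraries was sequenced after an mRNA library kit. The authors deposited 1 table of RPKM values for 12652 genes. Demultiplexing with bcl2fastq 2.17, alignment software STAR 2.5.2b and the build mm10 are listed in the submitters' processing notes; counting, strand, annotation and the library divisor are not given in the sources used here. Whole reads could be recovered from the RPKM for 100% of genes (tolerance 0.05 reads), and 0.136% of values were 0.

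Duplicates (r = 0.994 to 0.998 across genes) were averaged, giving 18 values. One limma 3.58.1 model (R 4.3.3) on log2(RPKM + 0.5) with group means, the mouse as a block and an intensity trend was fitted to genes with at least 1 RPKM in at least 4 libraries (8 residual and 5.01 prior degrees of freedom), two-sided. The step was tested on simulated data. The labels name the animal, and mouse differences correlated between groups with a median of 0.441 (0.0372 to 0.662). In 15 comparisons, and 1 added after the values were seen, p-values were adjusted over all 11361 genes.

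Members and lists were chosen with earlier results of these data known. Per role, the members with the most and the least negative mean difference over the 3 compounds at 24 h are given per library, as is every member called against the majority. From other lists up to 4 genes with the smallest p are named. Of the genes so chosen 1 is not reported here. Markers of the lists that are outside the table were not analysed here. Positions are from GENCODE M21 (GRCm38), matched by Entrez identifier for all 45 members, and promoters from RefSeq on GRCm38.p6, matched by symbol. Alternatives changed the pseudocount (0.1, 1), the filter, the scaling, the block, the use of duplicates, the variance prior, the groups fitted, the threshold and the test (limma-voom on recovered reads), and dropped single libraries or a mouse in turn. Fits without a mouse take duplicates of the other culture as samples, so their spread is not between animals.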

Additional observations from a re-analysis of the deposited data

Results flagged for a closer look

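In 7 of 162 sets of 4 libraries (18 genes in 9 groups) 1 library stood apart, its gap to the nearest being over Dixon's 95% critical share of the range. For 4 independent values chance gives this in about 1 set in 20. Here the 4 libraries are duplicates of 2 mice, so that rate need not hold. In the first duplicate of mouse 1 with atRA at 24 h, Orc1 had 2.99 RPKM, against 3.44 to 3.50 RPKM in the other libraries, and Slbp 17.4 RPKM, against 18.1 to 18.3 RPKM. Mcm10 had 7.22 RPKM in the first duplicate of mouse 2 with atRA at 24 h, against 6.26 to 6.35 RPKM. Prim1 had 10.6 RPKM in the first duplicate of mouse 2 with 9cisRA at 24 h, against 13.9 to 14.2 RPKM, and without that library its difference between RXRi and 9cisRA was 0.13 and not called (limma adjusted p = 0.159). Rpa2 had 13.5 RPKM in the second duplicate of mouse 2 with atRA at 24 h, against 11.6 to 11.9 RPKM. Fen1 had 29.9 RPKM in the second duplicate of mouse 2 with atRA at 6 h, against 33.7 to 34.3 RPKM. Slbp had 26.2 RPKM in the second duplicate of mouse 1 with RXRi at 6 h, against 23.1 to 23.6 RPKM.

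Tests of a difference between effects called members in 5 comparisons. RXRi and 9cisRA at 24 h differed at 32 of 45 genes, where 31.0% of all genes were higher and 25.3% lower. RXRi and atRA differed at 16, where 28.5% of all genes were higher and 24.3% lower, so that members were not called more often than all genes. The effect against DMSO changed between 6 h and 24 h at 27 genes with atRA, 36 with 9cisRA and 22 with RXRi. All these changes were negative, where 7.11%, 7.90% and 16.5% of all genes were called negative and 10.0%, 10.1% and 18.6% positive.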

How the results depend on the processing

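No called difference of a member between 2 groups changed its sign under any setting tried. Signs of single members in the changes of effect from 6 h to 24 h were not checked. Pseudocounts of 0.1 and 1, no filter and the variance prior without a trend kept every count within 1.5 times of the reported one. The replicate block is the mouse. Without it the calls fell to 9 of 22 for 24 h against 6 h with DMSO, 21 of 32 for RXRi against 9cisRA, and 15 of 27, 22 of 36 and 12 of 22 for the changes of the atRA, 9cisRA and RXRi effects, and no other count moved by over 1.5 times. At an adjusted p below 0.01 the counts were 11 for 24 h against 6 h with DMSO, 17 for the change with atRA and 11 for that with RXRi. At 6 h against DMSO, atRA (reported as 0) gave 1 with a mean of at least 5 RPKM, quantile normalization, scaling to read sums, 36 libraries as samples or limma-voom, and 2 with only the groups compared in the fit. For 9cisRA (0) these were 1 with quantile normalization or read sums, 4 with 36 libraries and 2 with only the groups compared, and for RXRi (1) 3 with quantile normalization, read sums or 36 libraries, 4 with only the groups compared and 2 with limma-voom. For 9cisRA against atRA (0) at 6 h 1 was called with a mean of at least 5 RPKM, 36 libraries or limma-voom and 3 with only the groups compared, and at 24 h 1 with only the groups compared. RXRi against atRA at 24 h (16) gave 32 with quantile normalization and 30 with read sums. The cause of these shifts was not tested. The share of all genes called under each setting is not given here, so the shifts need not be particular to the members.

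With scaling to read sums the median difference of all genes stood at -0.12 for 9cisRA against DMSO at 24 h, 0.13 for RXRi against 9cisRA and -0.11 for the change of the 9cisRA effect, and with quantile normalization at 0.13 for RXRi against 9cisRA and 0.11 for RXRi against atRA. The members' medians minus these were -0.56, 0.17, -0.45, 0.15 and 0.086 in that order. At 6 h the members' median with RXRi against DMSO was 0.015 after quantile normalization, against -0.035 as reported.

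Leaving out a library or a mouse gave 0 to 4 calls for atRA, 0 to 6 for 9cisRA and 1 to 3 for RXRi at 6 h. It gave 10 to 30 for 24 h against 6 h with DMSO, 0 to 1 for 9cisRA against atRA at 6 h, 17 to 30 for the change with atRA and 13 to 25 for that with RXRi. At 24 h against DMSO it gave 40 to 44 with atRA, 41 to 44 with 9cisRA and 30 to 39 with RXRi.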
